A study of Solanum lycopersicum with 29 samples.

Results

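The stretch described here is the middle of tomato chromosome 9, from gene Solyc09g015030 to gene Solyc09g059010 in the order of the gene ids, with 1 gene in that range not used here. It holds 548 of the 35092 genes listed in the deposited tables, and 1949 other genes lie on chromosome 9. It was selected on the difference in read counts between 35S:nahG and wild type (WT) in these same libraries. Differences between 35S:nahG and WT inside it are therefore given as a description, with no test, and nothing is read from how many there are. The other lines against WT, the lines 35S:asCCD7 and Never ripe (NR) against each other, and heat against control within a line were not used to choose it, and those comparisons were tested. They share the WT libraries with the choosing comparison and with each other wherever WT is one side.

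RNA was sequenced from tomato (Solanum lycopersicum) anthers at the polarized microspore stage, with 6 anthers pooled per library. The low-SA line 35S:nahG expresses a bacterial salicylic acid (SA) degrading gene from the constitutive 35S promoter, the NR mutant is ethylene insensitive, and 35S:asCCD7 carries an antisense construct against the strigolactone biosynthesis gene CCD7. All were compared with WT of cv. Micro-Tom after long-term mild heat (LTMH, 34°C by day and 28°C by night for 8 days) or at control temperature (CT, 25°C and 19°C). The analysed tables held 3 LTMH and 4 CT libraries each of 35S:nahG, NR and WT, and 4 of each for 35S:asCCD7. The 35S:nahG locus had been introgressed into Micro-Tom, so an effect of the transgene and a difference of genetic background that travels with the line cannot be told apart in these libraries. The deposited tables give no more than 1 such line, and the genetic background of NR and 35S:asCCD7 is not given in the sources used here.

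Salicylic acid is a phenolic plant hormone best known for its part in defence against pathogens, and plants that carry nahG convert it to catechol. Tomato chromosomes have gene-rich arms and a long middle part of condensed, gene-poor chromatin around the centromere, where crossing-over is rare. Solyc ids are numbered along the chromosome, so that neighbouring numbers usually mean neighbouring genes. No sequence of these genes was in the references used here, and none is shown.

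Depth was alike across the series, with between 32273189 and 42353956 counted reads per library, so that 3 reads came to less than 0.1 CPM (reads scaled to the library's total) in every library. Each library correlated with the others of its group at a median r of at least 0.977, and no pair within a group agreed within sampling noise. The block took 0.542 to 0.586% of the reads in 35S:nahG and 0.514 to 0.561% in WT. Tapetum genes, which mark the nurse tissue of the pollen, differed far more: CYP703A2 ranged from 2078 to 3286 CPM in 35S:nahG CT and from 50.2 to 1034 CPM in WT CT, but from 2.85 to 3.53 CPM in 35S:nahG LTMH and from 1.67 to 70.3 CPM in WT LTMH. CYP704B1 and WBC27 were likewise higher in 35S:nahG CT, at 1679 to 2427 and 156 to 280.5 CPM, than in WT CT, at 63.0 to 736 and 6.23 to 55.0 CPM. TDF1 ranged from 0.590 to 1.68 CPM in 35S:nahG CT and from 0.310 to 4.1 CPM in WT CT, and 2 of the 3 35S:nahG LTMH libraries had no read of it. The part of these tapetum differences in the block's values was not tested, and in pooled anthers fewer cells of a type and less RNA per cell cannot be told apart. CCD7 had more reads in the antisense line, at 7.95 to 19.2 CPM in CT, than in WT CT, at 1.10 to 1.68 CPM. The counting is not stated to use strand, so reads of CCD7 and of its antisense construct cannot be told apart. Neither the nahG transgene nor the NR mutation was checked here.

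The block is poor in expressed genes. No read in any of the 29 libraries fell on 221 of its 548 genes (40.3%), against 14.3% of the rest of chromosome 9. By the authors' FPKM, a level per gene length, 167 block genes (30.5%) reached a mean of 1 over all libraries, against 1103 genes (56.6%) in the rest of the chromosome. Those expressed block genes were not weak: their median was 10.3 FPKM, beside 11.6 FPKM in the rest of chromosome 9. Their median length was also near that of the rest, at 1621 bases against 1644 bases. After the filter on low counts, 211 block genes were compared, and 337 were too low to compare.

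Positions on the SL3.0 genome were held for 60 block genes, which lie between 8002154 and 51795712. The id order followed them within most of the block. From Solyc09g015100 to Solyc09g020140 all 29 steps between positioned neighbours rose, and from Solyc09g047920 to Solyc09g057875 all 16 did. The ids from Solyc09g030360 to Solyc09g031970 ran mostly backwards, with 6 of 7 steps falling, and those from Solyc09g042260 to Solyc09g042780 lay between the first stretch and these. Distances along the block in id order are therefore not distances in bases. Function was annotated for too few of the 548 genes to count functional classes.

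The calls of 35S:nahG against WT in the block are listed here as a description of the comparison that chose it. At CT, 24 of the 211 genes were higher and 70 lower than in WT (94 genes, 44.5%), where 16.4% of all 21637 genes compared passed the same thresholds, 7.85% higher and 8.55% lower. At LTMH, 24 were higher and 63 lower (87 genes, 41.2%), beside 9.41% of all genes, 4.59% higher and 4.83% lower. A gene was called when its adjusted p was below 0.05 and its fold change at least 1.5. At CT and LTMH alike, 74 genes were called with 1 sign, 16 higher and 58 lower, beside 4.12% of all genes. A further 29 were called at 1 temperature, 2 were called in opposite directions and 106 at neither. Differences of at least 4-fold numbered 55 (26.1%) at CT and 56 (26.5%) at LTMH, beside 4.54% and 3.56% of all genes. These shares follow from how the block was chosen.

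Levels in the 4 lines are given for genes grouped by their calls in 35S:nahG against WT. The 35S:nahG and WT levels of the called groups follow from that grouping. The 58 genes lower at both temperatures had a median level of 0.0440 CPM in 35S:nahG, against 3.90 CPM in NR, 4.51 CPM in 35S:asCCD7 and 4.16 CPM in WT. In 39 of the 58 the 35S:nahG mean was under 10% of the WT mean, in 14 it was 10 to 50%, and in 5 it was above 50%, up to 62.8%. No read of 9 of the 58 was found in any 35S:nahG library. The 16 genes higher at both temperatures had a median of 3.13 CPM in 35S:nahG, 1.86 CPM in NR, 1.17 CPM in 35S:asCCD7 and 0.940 CPM in WT. For these genes the NR and 35S:asCCD7 medians lay between those of WT and 35S:nahG, a place that grouping genes by 35S:nahG against WT favours. The 106 genes called at neither temperature had medians of 20.7 CPM in 35S:nahG, 18.5 CPM in NR, 21.2 CPM in 35S:asCCD7 and 20.1 CPM in WT. The block thus held both genes called in 35S:nahG and genes called at neither temperature. The genes lower in 35S:nahG at both temperatures had a lower median level in WT than those called at neither.

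Counted per library, 175 to 183 block genes had at least 4 reads in 35S:nahG, against 207 to 220 in the 22 libraries of the other lines. The 2 ranges did not overlap. The block was chosen on the difference between 35S:nahG and WT in these libraries, so that separation is given as a description. The same count over the rest of chromosome 9 was 1287 to 1307 genes in 35S:nahG and 1311 to 1343 in the other lines, again without overlap. Over all genes it was 21247 to 21829 and 21333 to 22004, so there the libraries overlapped.

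**Figure D1:**
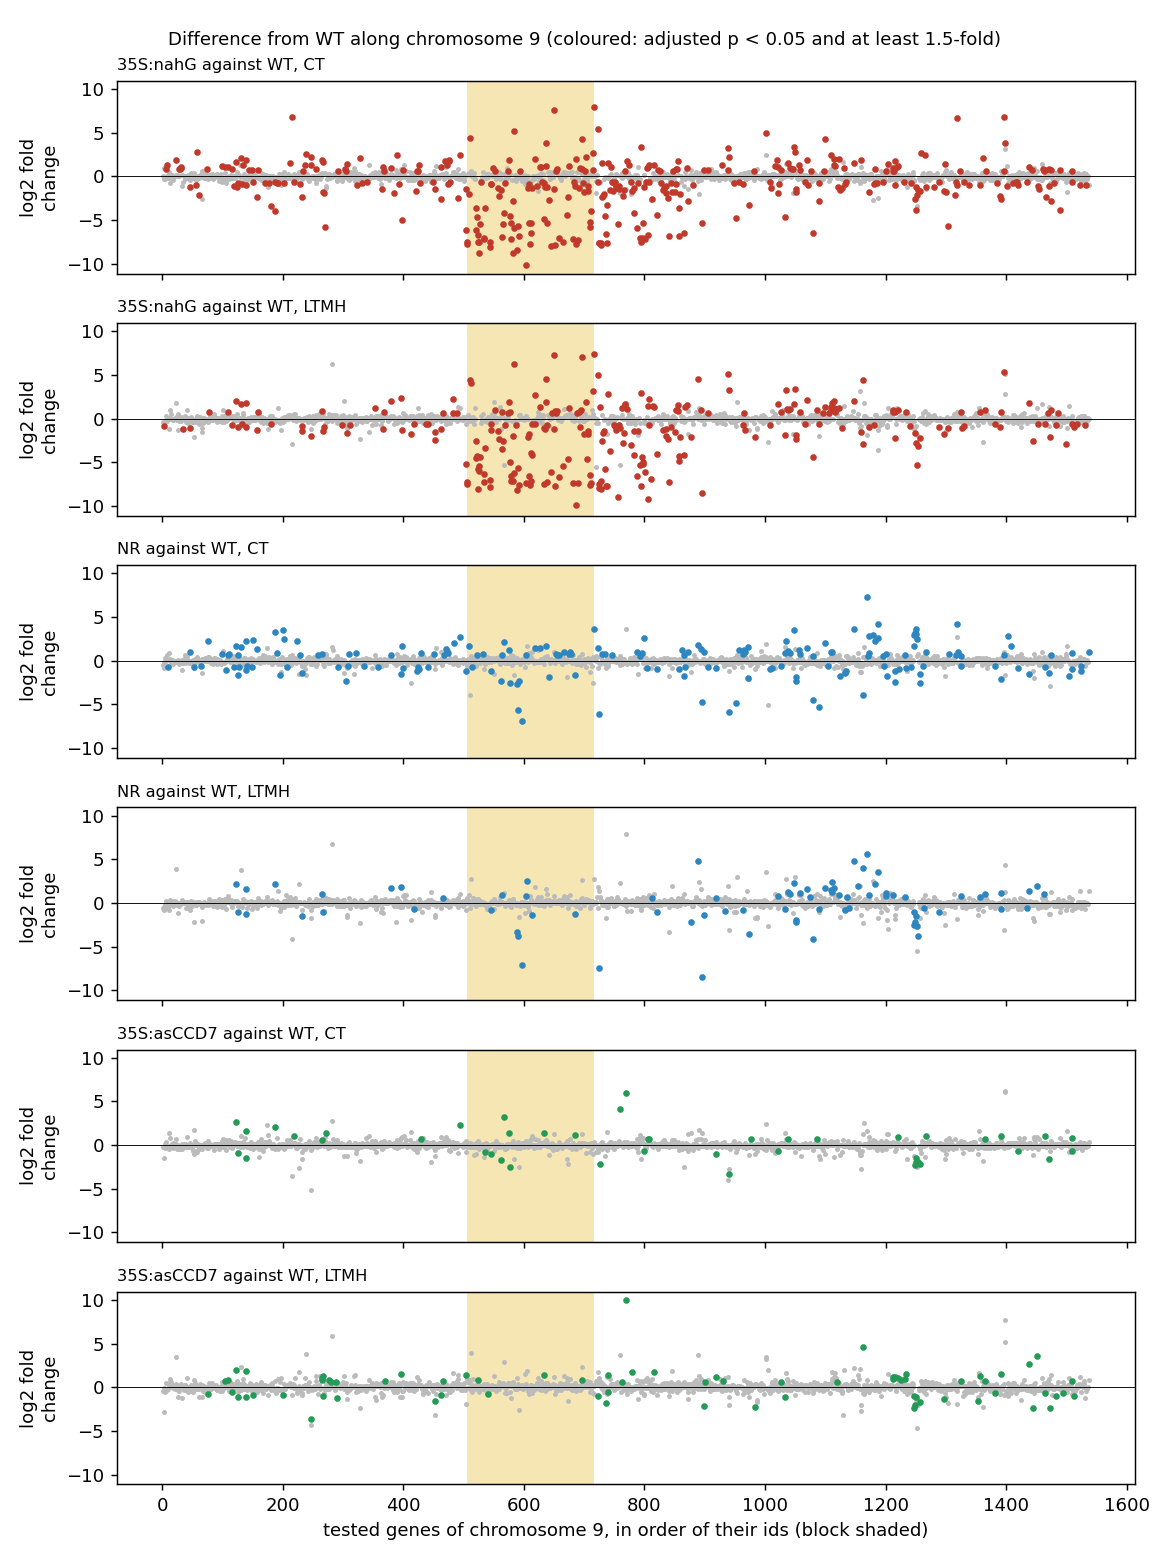
Each point is 1 tested gene of chromosome 9, placed by the order of its id (x axis) at its log2 fold change against WT (y axis), for 35S:nahG, NR and 35S:asCCD7 at CT and LTMH; coloured genes passed adjusted p below 0.05 and 1.5-fold, and the block is shaded. In 35S:nahG strongly lower genes lie along the block among genes that were not called, and go on beyond its right edge. NR has 27 called block genes (12.8%) at CT and 9 (4.27%) at LTMH, beside 10.5% and 4.34% of all genes. For 35S:asCCD7 these are 8 (3.79%) and 4 (1.9%), beside 3.81% and 5.53% of all genes.

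Along chromosome 9 in id order, calls of 35S:nahG against WT went on past the upper edge of the block. They come from the comparison that chose the block and are given as a description. In windows of 20 tested genes in id order, the 18 windows from Solyc09g014940 to Solyc09g065120 each held 3 to 12 genes called with 1 sign in 35S:nahG at CT and at LTMH. Of the 25 windows before them, 1 held 6 such genes and 1 held 3, and the rest held 0 to 2. The 34 windows after them held 0 to 6. The window from Solyc09g059125 to Solyc09g059440, just past the block, had the highest number, 12 of 20. Over the rest of chromosome 9, 124 of 1326 genes were called with 1 sign at both temperatures, beside 4.12% of all genes. They were 102 of the 821 genes after the block and 22 of the 505 before it.

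**Figure D2:**
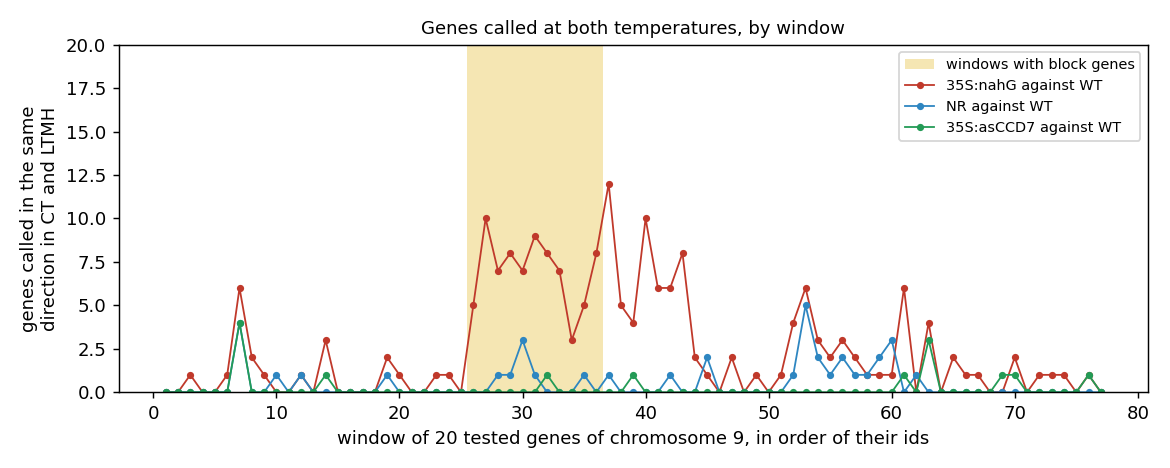
The number of genes called with 1 sign at CT and LTMH (y axis) in each successive window of 20 tested genes of chromosome 9 in id order (x axis; the last window holds 17), for 35S:nahG, NR and 35S:asCCD7 against WT. The 35S:nahG line stays at 3 to 12 through the shaded windows and the windows just after them, while NR reaches 3 and 35S:asCCD7 1 in the shaded windows.

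At the lower edge the nearest tested genes outside the block were Solyc09g015000 and Solyc09g015020, which encode the class I small heat shock proteins Hsp15.2-CI and Hsp17.7A-CI, chaperones that bind unfolding proteins. Solyc09g015020 had 0, 0, 0 and 0.0295 CPM in 35S:nahG CT and 0, 0.0290 and 0 CPM in LTMH, against 2.31, 2.0, 1.62 and 1.79 CPM in WT CT and 2.24, 2.12 and 2.32 CPM in LTMH. Solyc09g015000 stayed at or under 0.0883 CPM in 35S:nahG, against 1.07 to 1.71 CPM in WT. Inside, the first member, Solyc09g015030, had no read in 35S:nahG, against 0.406 to 1.01 CPM in WT, and the next, Solyc09g015040, had 35.7 to 41.7 CPM in 35S:nahG CT against 26.7 to 34.4 CPM in WT CT. At the upper edge the last tested member, Solyc09g058990, overlapped WT at CT, with 21.0 to 25.7 CPM in 35S:nahG against 20.9 to 24.7 CPM in WT. The member before it, Solyc09g058980, was higher in 35S:nahG without overlap, at 3.48 to 4.23 CPM in CT against 1.52 to 2.81 CPM in WT CT and at 6.29 to 6.62 CPM in LTMH against 4.13 to 4.34 CPM in WT LTMH. Outside, Solyc09g059020 had 40.3 to 79.1 CPM in 35S:nahG against 0 to 0.748 CPM in WT, and Solyc09g059030 had 47.2 to 57.5 CPM against 43.4 to 54.1 CPM. Neither edge thus separates differing from like genes.

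Read in only one of 35S:nahG and WT were 10 members, that is, with at most 3 reads in every library of one and at least 1 CPM on average in the other at both temperatures. Of them 9 were missing in 35S:nahG and 1 was missing in WT, together 1.82% of the block's 548 genes, beside 0.103% of all listed genes. The same count was 7 for the rest of chromosome 9. For NR and for 35S:asCCD7 against WT it was 0 in the block, where the shares of all listed genes were 0.0427% and 0.0655%.

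The 9 missing genes are spread over the whole block. Solyc09g056200, annotated as an unknown protein (chromosome 9, 47660993 to 47661663), had 9 reads in all over the 7 35S:nahG libraries and no library above 0.0930 CPM. Its level was 7.92 to 11.7 CPM in NR, 9.17 to 12.3 CPM in 35S:asCCD7 and 11.3 to 14.02 CPM in WT. Solyc09g048970 (34669027 to 34671264) had 8 reads in 35S:nahG and 6.91 to 9.43 CPM in WT. Solyc09g030360 (32354378 to 32354473) had 3 reads in 35S:nahG, all in 1 LTMH library, and 3.67 to 5.53 CPM in WT. Each of these genes was read in all 22 libraries of the other lines and had at most 3 reads in any 35S:nahG library.

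The remaining missing genes had 1 to 5 reads each over the 35S:nahG libraries. Solyc09g018900 had a single read there, against 1.25 to 2.26 CPM in WT. It lies across Solyc09g018890, a DUF2996 family gene on the opposite strand that was itself lower in 35S:nahG, at a mean of 0.694 CPM in CT against 4.67 CPM in WT CT. Solyc09g055320 (unknown protein) had 5 reads, and 1.80 to 3.28 CPM in WT. Solyc09g016953 had 4 reads, and 2.79 to 5.08 CPM in WT, and it overlaps Solyc09g016950 on the same strand. Solyc09g015470, Solyc09g015473 and Solyc09g015475 follow each other between 8937942 and the start of the last at 8943084. They had 5, 5 and 4 reads in 35S:nahG, and 1.79 to 2.50, 1.64 to 2.93 and 1.16 to 1.88 CPM in WT.

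The 1 gene read in 35S:nahG but not in WT was Solyc09g047920 (33890354 to 33896158), annotated as a mitogen-activated protein kinase kinase kinase YODA, a kinase that in Arabidopsis acts early in a signalling cascade of embryo and stomatal patterning. It had 7.03, 5.88, 7.58 and 6.52 CPM in 35S:nahG CT and 7.67, 6.15 and 6.65 CPM in LTMH. WT had 8 reads over its 7 libraries and at most 0.0870 CPM. NR and 35S:asCCD7 stayed at or under 0.163 and 0.202 CPM, so the gene was high in 1 line alone and at the same level in heat and control.

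**Figure D3:**
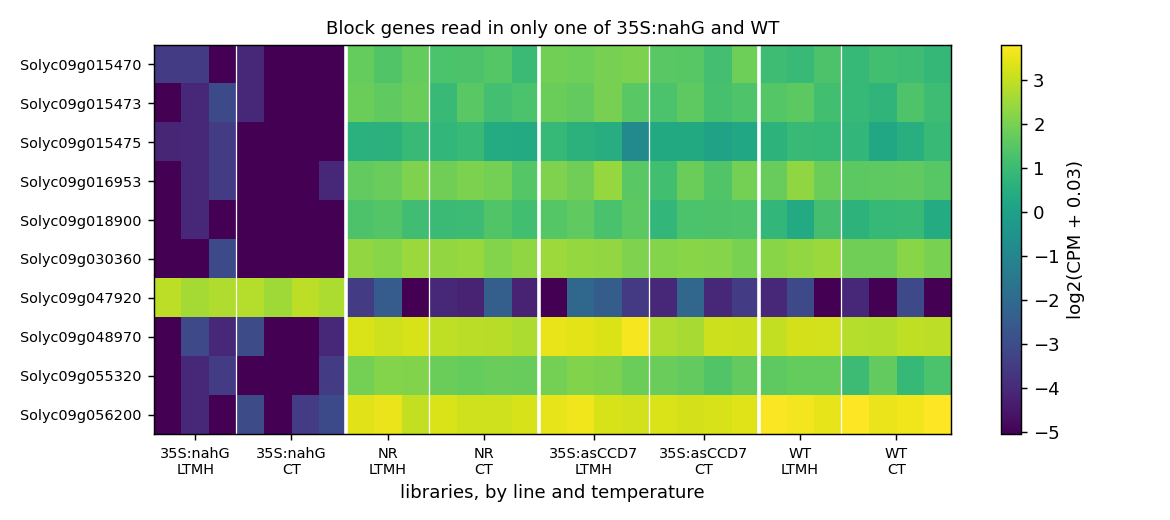
The level of the 10 block genes read in only one of 35S:nahG and WT (rows) in each of the 29 libraries (columns, by line and then LTMH and CT), coloured by log2(CPM + 0.03). Rows for the 9 missing genes are dark in the 7 35S:nahG columns and light in all others, and Solyc09g047920 shows the reverse.

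The 9 genes missing in 35S:nahG were near WT in the other lines. Against WT, NR had 1 of the 9 higher and 0 lower at CT (10.5% of all genes were called in that comparison) and 0 at LTMH (4.34% called), with log2 fold changes from -0.38 to 0.61 at CT and from -0.33 to 0.47 at LTMH. 35S:asCCD7 had 0 called at CT (3.81% of all genes) and 1 higher at LTMH (5.53% of all genes), with log2 fold changes from -0.48 to 0.47 and from -0.51 to 0.77. The gene higher in NR CT was Solyc09g055320, with a log2 fold change of 0.61 ± 0.17 (SE, adjusted p = 0.0276, edgeR). The gene higher in 35S:asCCD7 LTMH was Solyc09g015470, with a log2 fold change of 0.77 ± 0.18 (SE, adjusted p = 0.0396, edgeR).

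Other members were much lower in 35S:nahG without being absent. Solyc09g016950 (unknown protein, 11864215 to 11869311) had 0.186, 0, 0.0587 and 0.413 CPM in 35S:nahG CT and 0, 0.406 and 0.147 CPM in LTMH, against 30.1, 29.4, 28.9 and 31.4 CPM in WT CT and 35.2, 44.3 and 39.6 CPM in LTMH. Solyc09g018955 (17749328 to 17764283) had 0.521 to 1.33 CPM in 35S:nahG, against 44.0 to 59.9 CPM in WT. Solyc09g015490, annotated as phosphoenolpyruvate carboxylase, which fixes bicarbonate onto phosphoenolpyruvate, had 0.0282 to 0.406 CPM in 35S:nahG, against 4.18 to 5.34 CPM in WT. These last 2 genes were chosen after their values were seen, for the level of the first in WT and for the annotation of the second. In each of these genes the libraries of 35S:nahG and WT did not overlap, where 34.9% of all genes did not overlap at CT and 42.3% at LTMH.

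Among the genes called lower in 35S:nahG at both temperatures, Solyc09g057650 (50309021 to 50311890) had the highest mean level in WT. It is annotated as the 40S ribosomal protein S8, a constituent of the small ribosomal subunit. It had 20.5, 17.3, 23.6 and 17.8 CPM in 35S:nahG CT and 19.5, 19.9 and 17.7 CPM in LTMH, against 70.4, 75.2, 61.1 and 66.4 CPM in WT CT and 58.0, 63.0 and 59.0 CPM in LTMH. The log2 fold change was -1.81 ± 0.11 (SE) at CT and -1.72 ± 0.05 at LTMH. NR had 44.2 to 61.3 CPM and 35S:asCCD7 64.7 to 87.2 CPM over both temperatures, both above every 35S:nahG library. This gene too was chosen after its values were seen.

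Genes higher in 35S:nahG were fewer and mostly less extreme. Solyc09g042670 (24988930 to 24992353) had 2.63, 2.43, 3.11 and 2.45 CPM in 35S:nahG CT and 3.55, 3.39 and 4.41 CPM in LTMH, against 0.121, 0.113, 0.319 and 0.182 CPM in WT CT and 0.0898, 0.116 and 0.268 CPM in LTMH. Solyc09g015100, the first positioned member, had 0.856 to 1.77 CPM in 35S:nahG against 0 to 0.120 CPM in WT. Solyc09g057680, annotated as a receptor-like kinase TMK4, had 67.1, 68.3, 76.3 and 77.3 CPM in 35S:nahG CT and 13.0, 20.2 and 18.7 CPM in LTMH, against 18.0, 5.50, 23.3 and 15.3 CPM in WT CT and 3.95, 4.47 and 4.91 CPM in LTMH. TMK kinases are plasma membrane receptors that take part in auxin signalling in Arabidopsis. Solyc09g031685 had 3.17 to 6.08 CPM in 35S:nahG CT against 0.367 to 1.58 CPM in WT CT. Solyc09g018220 had 1.59 to 2.23 CPM in 35S:nahG CT and 3.62 to 3.81 CPM in LTMH, against 0.908 to 1.47 CPM in WT CT and 1.71 to 2.09 CPM in LTMH.

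The block's 4 most abundant genes were read at high levels in 35S:nahG, with log2 fold changes against WT from -0.01 to 0.74 over both temperatures. Solyc09g015670, a vacuolar sorting receptor that sorts proteins on their way to the vacuole, had 255 to 294 CPM in 35S:nahG CT against 172 to 197 CPM in WT CT, and 420 to 458 CPM in LTMH against 279 to 294 CPM in WT LTMH. Solyc09g018790, a succinic semialdehyde reductase, had 265 to 291 CPM against 205 to 242 CPM at CT, and 309 to 331 CPM against 170 to 193 CPM at LTMH. Solyc09g018450 had 302 to 322 CPM against 209 to 214 CPM at CT, and 207 to 228 CPM against 194 to 217 CPM at LTMH. Those 3 genes were above WT in every 35S:nahG library at CT, and only Solyc09g018450 overlapped WT at LTMH. Solyc09g018750, a CBS domain protein, had 256 to 273 CPM against 145 to 175 CPM at CT, and 267 to 284 CPM against 164 to 177 CPM at LTMH. Only this last gene was called at both temperatures, and Solyc09g018790 was called at LTMH.

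Members that belong to gene sets of heat, hormone and sugar biology include 6 tested genes. Solyc09g015360, a DnaJ-C gene of the HSP40 co-chaperone family, had 19.6 to 25.9 CPM in 35S:nahG CT against 25.6 to 30.2 CPM in WT CT. Solyc09g015380, an abscisic acid receptor of the PYL4-like kind, had 0.870 to 1.32 CPM in 35S:nahG LTMH against 0.208 to 0.658 CPM in WT LTMH. At CT it overlapped WT, with 0.203 to 0.354 CPM against 0.169 to 0.577 CPM. Solyc09g015830, annotated as the receptor-like protein kinase FERONIA, had 82.7 to 100 CPM in 35S:nahG CT against 97.3 to 113 CPM in WT CT. Solyc09g031970 (PHS2), an alpha-1,4 glucan phosphorylase that releases glucose phosphate from starch, had 199 to 253 CPM against 157 to 188 CPM at CT. At LTMH it had 212 to 224 CPM against 155 to 166 CPM. Solyc09g025260, a rho-N domain gene of the abscisic acid response set, had 22.5 to 27.7 CPM against 31.9 to 32.7 CPM at CT. At LTMH it overlapped WT, with 30.5 to 33.3 CPM against 33.2 to 36.7 CPM. Of the 6 genes, 0 were called at CT, where 16.4% of all genes were, and 1 at LTMH, where 9.41% were. The called gene was Solyc09g018510, a probable phytol kinase, with 69.1 to 72.5 CPM in 35S:nahG against 39.8 to 43.9 CPM in WT.

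Against WT, the share of block genes called in NR was near that of all genes. At CT 17 of the 211 genes were higher and 10 lower (27 genes, 12.8%), where 10.5% of all genes (6.15% higher, 4.39% lower) and 12.3% of the rest of chromosome 9 were called. At LTMH 3 were higher and 6 lower (9 genes, 4.27%), beside 4.34% of all genes (2.44% higher, 1.9% lower). The LTMH number was 4 without WT replicate 2, 3 or 4 or without NR replicate 1, and 5 without NR replicate 3. Across the 2 temperatures 7 genes were called alike, 2 higher and 5 lower, where 1.84% of all genes were. The median difference of the block genes regardless of sign was 0.19 on the log2 scale at CT and 0.16 at LTMH, close to the 0.20 and 0.19 of all genes.

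One member was almost silent in NR and in no other line. Solyc09g020190 had 0.289, 0, 0.598 and 0.415 CPM in NR CT and 0, 0.684 and 0.495 CPM in NR LTMH. WT had 39.3, 42.9, 33.6 and 43.3 CPM in CT and 45.7, 50.4 and 56.7 CPM in LTMH. The log2 fold change was -6.86 ± 0.39 (SE, adjusted p = 2.72e-06, edgeR) at CT and -7.06 ± 0.53 (adjusted p = 0.00203) at LTMH. 35S:nahG had 23.7 to 62.2 CPM and 35S:asCCD7 45.0 to 62.0 CPM, and every one of their libraries was above every NR library. Against 35S:asCCD7, which shares no library with WT, NR was lower by a log2 fold change of -7.15 ± 0.42 (adjusted p = 8.3e-06, edgeR) at CT and -7.15 ± 0.55 (adjusted p = 0.00373) at LTMH.

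Close to it by id, Solyc09g020065 and Solyc09g020073 were low in NR and had no read in 35S:nahG. Solyc09g020065 (18373690 to 18376023) had 0.0289, 0.142, 0.109 and 0.441 CPM in NR CT and 0.143, 0.0297 and 0.124 CPM in LTMH, against 0.911, 0.875, 1.68 and 1.67 CPM in WT CT and 0.539, 0.638 and 1.78 CPM in LTMH. Its log2 fold change was -2.70 ± 0.57 (SE, adjusted p = 0.008, edgeR) at CT and -3.31 ± 0.70 (adjusted p = 0.0355) at LTMH. Solyc09g020073 had 1 read in NR over its 7 libraries, against 0.0908 to 0.243 CPM in WT CT and 0.145 to 0.238 CPM in LTMH, with adjusted p = 0.00803 (edgeR) at CT and 0.049 at LTMH. The LTMH calls of both genes were lost in 6 and 8 of the other settings tried.

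The other members called in NR at both temperatures differed less. Solyc09g056170 had 6.28 to 8.72 CPM in NR CT and 6.96 to 7.49 CPM in LTMH, against 15.5 to 32.5 CPM in WT CT and 14.5 to 20.5 CPM in LTMH (log2 fold change -1.63 ± 0.21 and -1.30 ± 0.14, adjusted p = 0.000547 and 0.00541, edgeR). Solyc09g018010, a non-specific lipid-transfer protein (12597598 to 12606262), had 21.8 to 26.5 CPM in NR CT and 17.3 to 19.4 CPM in LTMH, against 57.2 to 64.1 CPM in WT CT and 27.0 to 37.2 CPM in LTMH. Lipid-transfer proteins carry lipids outside the cell, and members of the family serve pollen wall formation. Its log2 fold changes were -1.19 ± 0.08 (adjusted p = 7.79e-06, edgeR) and -0.83 ± 0.14 (adjusted p = 0.0176). Solyc09g018550 was higher, at 1.58 to 2.14 CPM in NR CT against 1.16 to 1.58 CPM in WT CT, and 1.89 to 2.20 CPM in LTMH against 0.868 to 1.19 CPM in WT LTMH (adjusted p = 0.0223 and 0.0413, edgeR). That gene had at most 0.197 CPM in 35S:nahG. Solyc09g025310 was higher as well, by log2 fold changes of 0.63 ± 0.14 and 0.74 ± 0.16 (adjusted p = 0.00889 and 0.0356, edgeR). The most abundant member, Solyc09g015670, was higher in NR at CT alone, at 298 to 321 CPM against 172 to 197 CPM in WT (log2 fold change 0.79 ± 0.06, adjusted p = 1.8e-05, edgeR). Also at CT alone, Solyc09g055920 had 13.1 to 14.4 CPM in NR against 7.70 to 8.75 CPM in WT (log2 fold change 0.83 ± 0.08, adjusted p = 6.69e-05, edgeR). Solyc09g031875 had 1.99 to 2.79 CPM in NR CT against 0.536 to 1.13 CPM in WT CT (log2 fold change 1.51 ± 0.24, adjusted p = 0.00181, edgeR). At LTMH alone, Solyc09g031528, annotated as a D-alanine-D-alanine ligase, had 4.25 to 5.38 CPM in NR against 10.2 to 13.1 CPM in WT (log2 fold change -1.36 ± 0.15, adjusted p = 0.00588, edgeR). Solyc09g025310 and the last 3 of these genes were chosen after their values were seen.

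35S:asCCD7 differed from WT in few block genes. At CT 4 were higher and 4 lower (8 genes, 3.79%), where 3.81% of all genes were called (2.17% higher, 1.64% lower), and at LTMH 3 were higher and 1 lower (4 genes, 1.90%), where 5.53% of all genes were (3.66% higher, 1.87% lower). At CT Solyc09g018610, Solyc09g018780, Solyc09g031975 and Solyc09g056170 were higher, and Solyc09g015770, Solyc09g018010, Solyc09g018500 and Solyc09g018785 were lower. The highest fold was that of Solyc09g018610, with 2.96, 3.24, 2.89 and 3.64 CPM in 35S:asCCD7 CT against 0.0607, 0.169, 0.754 and 0.333 CPM in WT CT (log2 fold change 3.17 ± 0.53, adjusted p = 0.00963, edgeR). That gene, chosen after its values were seen, was near 0 in 35S:nahG, at 0.0590 CPM or less. The LTMH number depended on single libraries, at 0 without WT replicate 2 or 3, 1 without WT replicate 4 or 35S:asCCD7 replicate 2 or 4, 2 without 35S:asCCD7 replicate 1 and 11 without 35S:asCCD7 replicate 3. The 4 genes were Solyc09g015470, Solyc09g031975 and Solyc09g057580, which were higher, and Solyc09g016935, which was lower. One gene was called at both temperatures, beside 1.71% of all genes. This was Solyc09g031975, with 0.802 to 0.976 CPM in 35S:asCCD7 CT and 1.31 to 2.08 CPM in LTMH, against 0.182 to 0.464 CPM in WT CT and 0.406 to 0.863 CPM in LTMH (log2 fold change 1.41 ± 0.33 and 1.35 ± 0.34, adjusted p = 0.0349 and 0.0488, edgeR). Deviations of same-numbered CT replicates of these 2 lines correlated at r = 0.118, 0.165, 0.444 and 0.281, though no pairing is stated. With the replicate number as a block, 6 of the 8 CT genes stayed called, and Solyc09g031975 (adjusted p = 0.0617, edgeR) and Solyc09g056170 (adjusted p = 0.0795, against 0.04 without the block) did not.

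NR and 35S:asCCD7 were also set against each other, since neither line was used to choose the block. At CT 10 genes were higher and 6 lower in NR (16 genes, 7.58%), beside 6.64% of all genes (3.66% higher, 2.98% lower). There were 10 without NR replicate 1 or 4, 9 without NR replicate 3 and 8 without 35S:asCCD7 replicate 1. The 16 included Solyc09g056170, with 6.28 to 8.72 CPM in NR CT against 33.5 to 66.3 CPM in 35S:asCCD7 CT (log2 fold change -2.76 ± 0.22, adjusted p = 5.67e-05, edgeR). At LTMH 3 genes were called, all lower in NR (1.42%), beside 0.203% of all genes (0.0647% higher, 0.139% lower). They were Solyc09g020190, Solyc09g020065 (log2 fold change -4.29 ± 0.50, adjusted p = 0.0187, edgeR) and Solyc09g056170 (log2 fold change -1.76 ± 0.24, adjusted p = 0.0427, edgeR). Without NR replicate 1 or 4, or without 35S:asCCD7 replicate 1, 2 or 4, 1 gene was called.

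A pair of overlapping members set WT at CT apart from all 3 other lines. Solyc09g018780 (16998972 to 17016204, plus strand) contains Solyc09g018785 (17001351 to 17008591, minus strand), so reads of the pair cannot be told apart by strand. The same limit holds where the end of Solyc09g018780 overlaps Solyc09g018790 (17014509 to 17018822, minus strand), one of the block's most abundant genes. Solyc09g018785 had 0.0930, 0.174, 0.117 and 0.206 CPM in 35S:nahG CT, 0.347, 0.283, 0.652 and 0.752 CPM in NR CT, 0.422, 0.459, 1.24 and 0.230 CPM in 35S:asCCD7 CT, and 4.1, 3.30, 2.78 and 3.00 CPM in WT CT. At LTMH it had 0.0870 to 0.225 CPM in 35S:nahG, but 3.32 to 4.05 CPM in NR, 3.09 to 3.47 CPM in 35S:asCCD7 and 3.74 to 5.42 CPM in WT. Against WT at CT its log2 fold change was -2.60 ± 0.30 in NR (adjusted p = 0.000262, edgeR) and -2.54 ± 0.44 in 35S:asCCD7 (adjusted p = 0.0117). At LTMH neither passed (adjusted p = 0.276 and 0.105). Solyc09g018780 ran the other way, with 14.3 to 15.1 CPM in 35S:nahG CT, 8.12 to 9.13 CPM in NR CT, 9.30 to 13.2 CPM in 35S:asCCD7 CT and 3.25 to 4.27 CPM in WT CT. Its log2 fold change at CT was 1.23 ± 0.10 in NR (adjusted p = 3.66e-05, edgeR) and 1.38 ± 0.13 in 35S:asCCD7 (adjusted p = 0.000471). The 3 comparisons share the WT libraries, so they are not independent of each other. Solyc09g018785 was chosen after its values were seen.

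**Figure D4:**
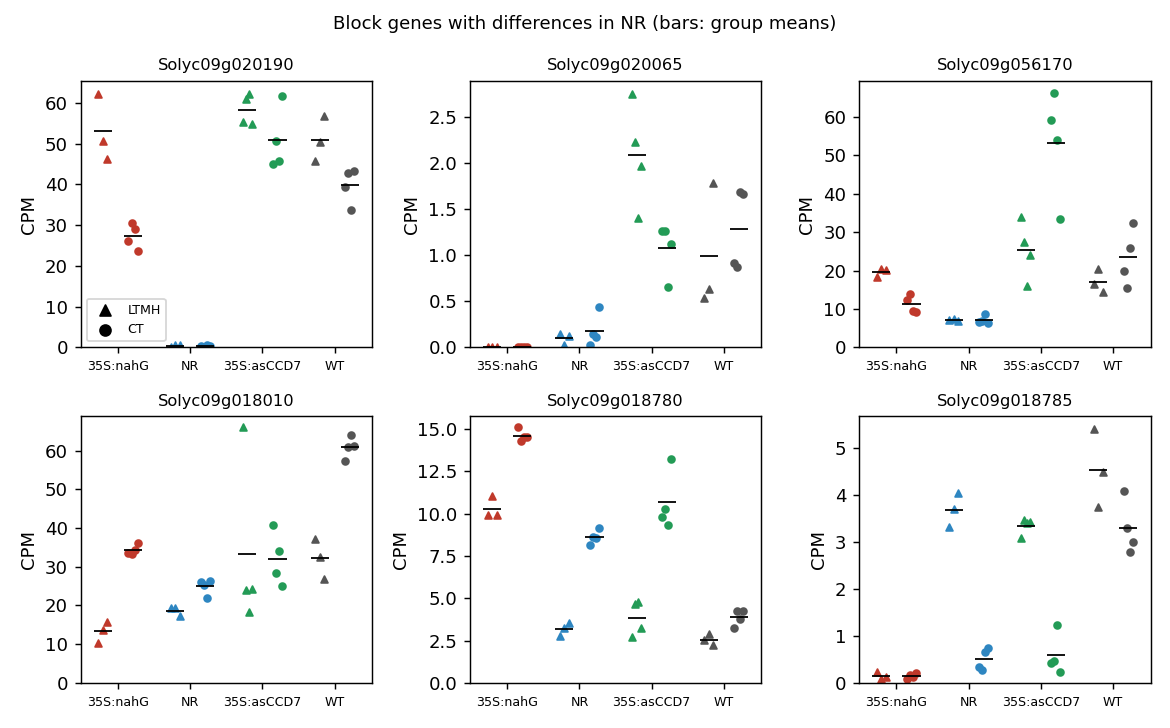
CPM (y axis) of 6 block genes in each library of 35S:nahG, NR, 35S:asCCD7 and WT (x axis), with LTMH as triangles to the left of CT as circles, and bars at the group means. Solyc09g020190 lies at 0.684 CPM or less in the 7 NR libraries alone, and Solyc09g018785 is high in WT at both temperatures but in NR and 35S:asCCD7 at LTMH only.

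In each of the 4 lines the share of block genes called for long-term mild heat lay below that of all genes, by little in 35S:asCCD7. The difference was not tested. In 35S:nahG 26 genes rose and 19 fell in LTMH against CT (45 genes, 21.3%), where 27.5% of all genes were called (14.5% rose, 13% fell). Of the 58 members lower in 35S:nahG at both temperatures, 27 had at most 3 reads in every 35S:nahG library. A heat call was hardly possible for them, which lowers the 35S:nahG share. In NR 8 rose and 5 fell (13 genes, 6.16%), beside 8.43% of all genes (4.41% and 4.02%). In 35S:asCCD7 8 rose and 5 fell (13 genes, 6.16%), beside 7.17% (4.37% and 2.8%). In WT 11 rose and 11 fell (22 genes, 10.4%), beside 17.2% (8.77% and 8.43%). The 35S:asCCD7 number was 4 without CT replicate 2 or 3 or LTMH replicate 4, 6 without CT replicate 1, and 8 without LTMH replicate 1 or 2. Over the 4 lines 55 members (26.1%) were called at least once, beside 36.2% of all genes. In all 4 lines 4 were called alike (2 higher and 2 lower), where 1.68% of all genes were.

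Solyc09g015770 (10988362 to 10990402), annotated as the transcription factor WRKY3 or WRKY81, rose with heat in every line from very different levels. WRKY factors bind W-box promoter elements and are best known from defence and stress responses. It had 2.62, 3.74 and 3.24 CPM in 35S:nahG LTMH against 0.682, 1.22, 1.15 and 1.48 CPM in 35S:nahG CT. In WT it had 29.9, 32.1 and 34.6 CPM in LTMH against 11.5, 11.6, 14.6 and 15.0 CPM in CT. NR had 24.7 to 34.7 CPM in LTMH against 8.38 to 11.2 CPM in CT, and 35S:asCCD7 25.2 to 39.3 CPM against 6.73 to 9.93 CPM. The log2 fold change of LTMH against CT was 1.41 ± 0.26 in 35S:nahG (adjusted p = 0.0017, edgeR), 1.36 ± 0.17 in NR (adjusted p = 0.00314), 1.97 ± 0.17 in 35S:asCCD7 (adjusted p = 0.000882) and 1.21 ± 0.11 in WT (adjusted p = 0.000191). Every 35S:nahG library, heated or not, lay below every library of the other lines.

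The receptor-like kinase gene Solyc09g030450 (31540703 to 31544028) rose in all 4 lines too. It had 15.6 to 17.3 CPM in 35S:nahG LTMH against 6.75 to 10.2 CPM in CT, and 45.7 to 61.9 CPM in WT LTMH against 14.3 to 16.5 CPM in WT CT. Its log2 fold changes were 0.85 ± 0.12 in 35S:nahG (adjusted p = 0.000399, edgeR), 1.27 ± 0.24 in NR (0.0129), 0.98 ± 0.19 in 35S:asCCD7 (0.0163) and 1.69 ± 0.10 in WT (3.38e-05). Solyc09g031685 and Solyc09g018780 fell in all 4. Solyc09g031685 had 0.592 to 2.0 CPM in 35S:nahG LTMH against 3.17 to 6.08 CPM in CT, and 0.179 to 0.232 CPM in WT LTMH against 0.367 to 1.58 CPM in CT. Its log2 fold changes were -1.84 ± 0.37 in 35S:nahG (adjusted p = 0.00287, edgeR), -2.16 ± 0.47 in NR (0.019), -3.39 ± 0.82 in 35S:asCCD7 (0.0307) and -2.57 ± 0.54 in WT (0.00724). The 35S:asCCD7 call of Solyc09g031685 was lost when any of its 8 libraries but CT replicate 4 was left out (adjusted p = 0.0516 to 0.0856, edgeR). Solyc09g018780 fell by 0.60 ± 0.08 on the log2 scale in 35S:nahG (adjusted p = 0.000217, edgeR), 1.61 ± 0.11 in NR (0.000365), 1.58 ± 0.19 in 35S:asCCD7 (0.00305) and 0.68 ± 0.15 in WT (0.00974).

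In 35S:nahG 2 nearby members changed with heat so far that their difference from WT had opposite signs at the 2 temperatures. Solyc09g056360, a cytochrome b561 and DOMON domain gene whose protein family passes electrons across membranes (49074611 to 49076845), had 63.5, 55.0 and 61.0 CPM in 35S:nahG LTMH against 13.2, 12.4, 14.9 and 16.9 CPM in 35S:nahG CT (log2 fold change 1.97 ± 0.11, adjusted p = 1.08e-06, edgeR). WT had 32.5 to 34.6 CPM in LTMH against 24.9 to 45.4 CPM in CT (-0.11 ± 0.18, adjusted p = 0.652). Solyc09g056385 (49157529 to 49158245) had 13.8, 12.4 and 14.1 CPM in 35S:nahG LTMH against 45.5, 29.8, 53.7 and 49.3 CPM in CT (log2 fold change -1.82 ± 0.19, adjusted p = 5.35e-05, edgeR). WT had 21.4 to 26.4 CPM in LTMH against 19.1 to 27.5 CPM in CT (0.00 ± 0.15, adjusted p = 1). Whether these responses differ between the lines was not tested. Both genes were chosen after their values were seen.

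Other members answered heat in part of the lines. Solyc09g057680, the TMK4-annotated kinase gene, fell in 35S:nahG (log2 fold change -2.15 ± 0.16, adjusted p = 5.18e-06, edgeR), in NR (-0.71 ± 0.14, adjusted p = 0.0133) and in WT (-1.88 ± 0.43, adjusted p = 0.0103), and had -0.80 ± 0.49 in 35S:asCCD7 (adjusted p = 0.302). Solyc09g018785 rose in NR (log2 fold change 2.68 ± 0.33, adjusted p = 0.00272, edgeR) and 35S:asCCD7 (2.39 ± 0.45, adjusted p = 0.0136), and had -0.13 ± 0.54 in 35S:nahG and 0.40 ± 0.18 in WT (adjusted p = 0.856 and 0.127). Solyc09g015380, the PYL4-like receptor, rose in 35S:nahG (log2 fold change 1.69 ± 0.31, adjusted p = 0.00171, edgeR) and NR (1.23 ± 0.30, adjusted p = 0.0269), and had 0.11 ± 0.53 in 35S:asCCD7 and 0.19 ± 0.52 in WT (adjusted p = 0.908 and 0.806). In 2 members heat was called in opposite directions in different lines, where 1.28% of all genes were, Solyc09g055765 (higher in 35S:nahG, lower in WT) and Solyc09g056170 (higher in 35S:nahG, lower in 35S:asCCD7). For Solyc09g056170 the log2 fold changes were 0.72 ± 0.14 in 35S:nahG (adjusted p = 0.00206, edgeR) and -1.19 ± 0.27 in 35S:asCCD7 (adjusted p = 0.0243).

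**Figure D5:**
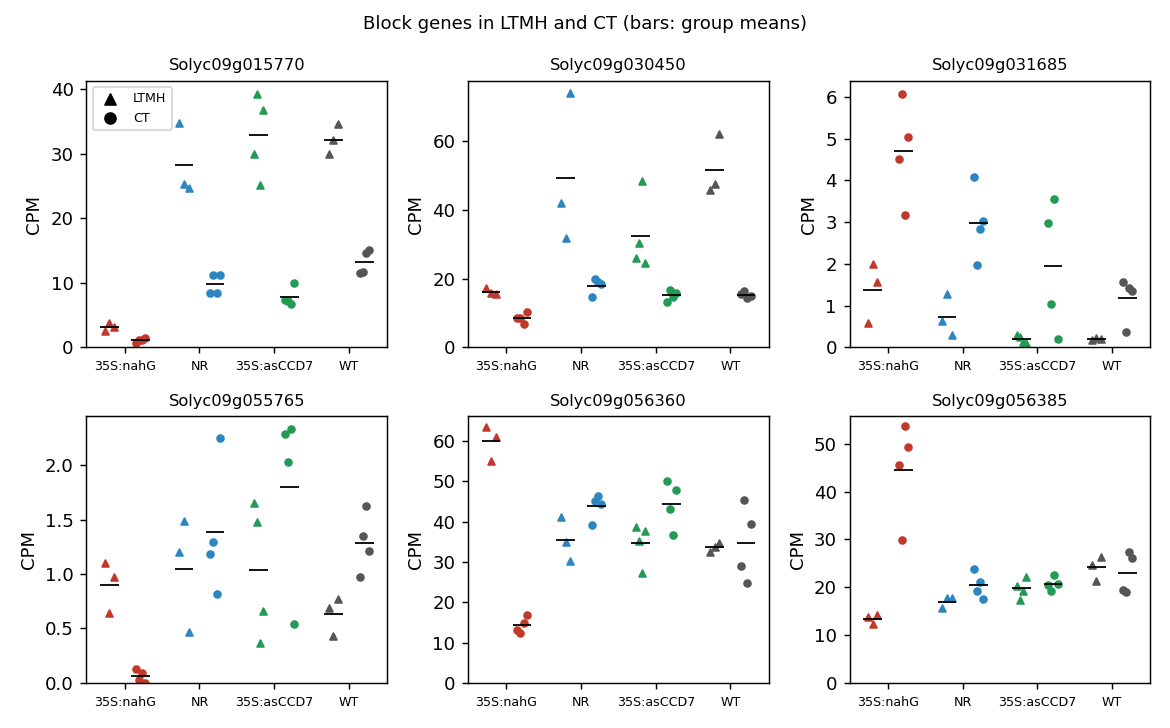
CPM (y axis) of 6 block genes in each library of 35S:nahG, NR, 35S:asCCD7 and WT (x axis), with LTMH as triangles to the left of CT as circles, and bars at the group means. Solyc09g015770 rises with LTMH in all 4 lines while staying at 3.74 CPM or less in 35S:nahG, and Solyc09g056360 and Solyc09g056385 move in opposite directions in 35S:nahG.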

How the data were processed

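The authors aligned the reads to the SL3.0 tomato genome (ITAG3.2 annotation) with HISAT2 2.0.5 and counted them per gene with featureCounts 1.5.0-p3. They deposited whole read counts per gene and FPKM values made from them, per gene length and library size. A kit or counting mode that keeps strand is not stated. Counts were used as deposited in R 4.3.3 with edgeR 4.0.16, and FPKM as deposited for levels per length only. Genes were kept by filterByExpr (minimum count 10, 8 groups, 29 libraries), normalized by TMM, and each pair of groups was fitted alone by the quasi-likelihood functions glmQLFit and glmQLFTest (two-sided). Their p-values were adjusted by Benjamini-Hochberg over all 21637 genes. A call needed an adjusted p below 0.05 and a fold of at least 1.5. SE is the log2 fold change divided by the square root of F. CPM is reads over the library's total reads, without TMM scaling, so a ratio of CPM can differ from the fitted fold change.

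Samples were grouped by line and temperature from the labels, and no column was left unassigned. The block, gene lists and rules were chosen with earlier results of these data known. Named genes were, by rule, the 2 tested genes on each side of each edge, the 6 highest and 6 lowest in 35S:nahG against WT of those with at least 1 CPM and no overlap, the 4 most abundant, at most 6 a line called in NR or 35S:asCCD7 at both temperatures, members of the study's gene sets, genes called for heat in all 4 lines or oppositely in 35S:nahG and WT, and Solyc09g018220. Annotations and positions came from the study's supplementary tables, which were held in part.

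Replicate numbers were checked for pairing by the correlation of deviations from the group means. All pairs were above 0.1 for 35S:asCCD7 and WT at CT (r = 0.118, 0.165, 0.444 and 0.281). They were also above 0.1 for NR and WT at LTMH, where replicates 3 and 4 gave r = 0.156 and 0.508. The study calls the replicates biological but does not say that they came from separate plants, so p-values measure the spread between these libraries. Alternatives were DESeq2 1.42.0, no filter, a filter on the compared libraries, RLE, 1 fit of all 8 groups, the replicate block, no fold threshold, each library left out and, for FPKM, a threshold of 0.1. Tests were tried on simulated counts. Figures used matplotlib 3.10.9.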

Additional observations from a re-analysis of the deposited data

Results flagged for a closer look

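In 169 sets of 4 libraries, each 1 named gene in 1 group or the block's share of reads, 4 had a library far from the other 3, where chance gives about 1 in 20. Solyc09g018010, the lipid-transfer protein gene, had 66.1 CPM in 35S:asCCD7 LTMH replicate 1 and 18.4 to 24.3 CPM in the other 3 libraries. Solyc09g015830, the FERONIA gene, had 147 CPM in 35S:asCCD7 LTMH replicate 3 and 105 to 107 CPM in the others. Solyc09g042670 had 0.305 CPM in 35S:asCCD7 LTMH replicate 4 and 0.0561 to 0.0914 CPM in the others. Solyc09g055765 had 0.545 CPM in 35S:asCCD7 CT replicate 4 and 2.03 to 2.33 CPM in the others.

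For 2 of the 37 named genes examined, every LTMH library lay above every CT library in 35S:nahG and below every CT library in WT. Solyc09g055765 had 1.10, 0.638 and 0.971 CPM in 35S:nahG LTMH against 0.124, 0.0290, 0.0881 and 0 CPM in CT, a log2 fold change of 3.75. In WT it had 0.688, 0.435 and 0.774 CPM in LTMH against 0.972, 1.35, 1.62 and 1.21 CPM in CT, a log2 fold change of -1.10. Solyc09g018790, the succinic semialdehyde reductase gene, had 309 to 331 CPM in 35S:nahG LTMH against 265 to 291 CPM in CT (log2 fold change 0.12), and 170 to 193 CPM in WT LTMH against 205 to 242 CPM in CT (-0.37). The difference between the lines was not tested.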

How the results depend on the processing

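No called log2 fold change of a named gene turned direction under any alternative, and under each scaling the median log2 fold change over all genes stayed between -0.03 and 0.03. The block numbers of 35S:nahG against WT stayed within 1.5 times of 94 and 87 in each setting. They were 76 at CT and 76 at LTMH when the low-count filter used the compared libraries only. With 1 library left out they were 86 to 92 at CT and 80 to 87 at LTMH. The other numbers of called block genes with 1 library left out were 20 to 26 for NR at CT, 4 to 10 for NR at LTMH, 6 to 7 for 35S:asCCD7 at CT and 0 to 11 at LTMH, 8 to 13 for NR against 35S:asCCD7 at CT and 1 to 3 at LTMH, and for heat 40 to 44 in 35S:nahG, 10 to 14 in NR, 4 to 14 in 35S:asCCD7 and 18 to 22 in WT. Without the fold threshold they were 56 for NR at CT, 13 and 7 for 35S:asCCD7 at CT and LTMH, 35 for NR against 35S:asCCD7 at CT, and for heat 79 in 35S:nahG, 34 in NR, 22 in 35S:asCCD7 and 66 in WT. DESeq2 called 10 for 35S:asCCD7 at LTMH and 6 for NR against 35S:asCCD7 at LTMH. No filter gave 2 for 35S:asCCD7 at LTMH. One fit of all 8 groups gave 17 for 35S:asCCD7 at LTMH, 21 for its heat response and 9 for NR against 35S:asCCD7 at LTMH. The replicate block gave 1 for NR at LTMH, 1 for 35S:asCCD7 at LTMH, 4 and 6 for heat in NR and 35S:asCCD7, and 9 and 0 for NR against 35S:asCCD7 at CT and LTMH. In these the numbers mark no stated pairing. The cause of these shifts was not tested.

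The calls resting on a few reads are the least firm: with at most 0.243 CPM in WT CT, Solyc09g020073 lost its CT call under the replicate block (adjusted p = 0.0517, edgeR). Solyc09g018550 lost its NR CT call in 6 settings, and Solyc09g018010 its NR LTMH call in 5. For Solyc09g055765 the WT heat call was lost in 4 settings, among them without WT CT replicate 3 (adjusted p = 0.0501, edgeR) and without WT LTMH replicate 3 (0.0744).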
